A study of Mus musculus with 5 samples.

Results

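Inhibitor of DNA binding (Id) proteins and the E proteins they bind were followed through single-cell RNA libraries of mouse kidney. The family comprised 7 of the 27998 genes in the deposited gene list: the 4 inhibitor genes Id1, Id2, Id3 and Id4, and the 3 E protein genes Tcf3, Tcf4 and Tcf12. Genes were matched by symbol, and their UMIs (unique molecular identifiers, each standing for 1 captured transcript) were summed per mouse within 7 lineages gated by marker transcripts. The family was chosen by a measured value, since an earlier comparison of these mice had found more Id3 in B cells after the transplant. The level of Id3 in B cells is therefore given as a description, with no test.

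All mice were of the strain C57BL/6j and had been given pristane, an oil that brings on a lupus-like disease, so no comparison with mice without pristane was possible. Per the labels, 2 mice received saline, and 3 mice received a faecal microbiota transplant (FMT) whose donors were MRL/MpJ mice. Age, sex and treatment time are not given in the sources used here. The labels name tubular epithelial cells and B cells and speak of a bulk RNA kit as well as 10x libraries, whereas the matrices hold many cell types. The sample titles begin with C and D for the saline mice and with B for the FMT mice. What these letters stand for is not given, and anything that follows them cannot be told apart from the treatment.

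The libraries held between 15333445 and 45309178 UMIs, and 21708 cells were used, between 2793 and 5993 per mouse. A cell entered a lineage when it passed that gate and no other. This gave 2408 B cells (Cd79a and Ms4a1), 1910 T cells (Cd3e), 33 plasmacytoid dendritic cells (Siglech), 1019 myeloid cells (Lyz2), 10319 proximal tubule cells (Lrp2 and Slc34a1), 821 distal tubule cells (Slc12a3) and 41 endothelial cells (Plvap and Emcn). A further 4646 cells passed no gate and 511 passed several. Markers not used for gating were compared between the gates. Cd79b, a chain of the B cell receptor, stood at 2382 CPM (counts scaled to a common total of UMIs) in pooled B cells and at 13.9 in T cells, and Cd3g, a chain of the T cell receptor complex, at 1256 CPM in T cells and 3.27 in B cells. Other listed markers separated some gates poorly. Cd2, of the T cell list, stood at 281 CPM in B cells and 471 in T cells. Ly6d, of the plasmacytoid list, was at 2154 CPM in B cells and 2404 in plasmacytoid cells. Tyrobp, of the myeloid list, was at 3978 CPM in plasmacytoid cells and 4496 in myeloid cells. Libraries shared between 3 and 12 cell barcodes per pair.

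E proteins are basic helix-loop-helix transcription factors that pair with each other or with tissue-restricted partners and bind the E-box, a short DNA motif written CANNTG. Id proteins carry the helix-loop-helix part but lack the basic region that contacts DNA, so an E protein held by an Id protein cannot bind its sites. In lymphocytes, Tcf3 (which encodes E12 and E47) and Tcf12 (HEB) drive early B and T cell programmes. Tcf4 (E2-2) maintains plasmacytoid dendritic cells, Id2 marks innate lymphocytes and effector T cells, and Id3 is more typical of naive and memory T cells and of B cells. In kidney epithelium and endothelium, Id1 and Id3 are known as direct transcriptional targets of BMP signalling through SMAD proteins.

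In mm10 (GENCODE M21) the genes lie on different chromosomes: Id1 at chr2:152736251-152737410 and Id3 at chr4:136143497-136145755 on the plus strand, Id2 at chr12:25093799-25097140 on the minus strand, and Id4 at chr13:48261228-48266026 on the plus strand. Among the E protein genes, Tcf3 lies at chr10:80409514-80433647 and Tcf12 at chr9:71842688-72111871, both on the minus strand. Because E proteins act through E-boxes, the 250 bases before the RefSeq transcription starts (GRCm38.p6) of Id2, Id3, Id4, Tcf3 and Tcf12 were searched for CANNTG, a motif that reads as CANNTG on the other strand too. Id1 and Tcf4 were not searched. The windows around 3 of the matches are shown 5′ to 3′ on the gene's strand, with the E-box in capitals. They show which of the searched members carry the family's own binding motif next to a start.
Id2, chr12:25096271-25096300, minus strand, E-box 196 bases before the start: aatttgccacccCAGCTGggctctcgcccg
Tcf3, chr10:80433672-80433701, minus strand, 54 bases before the start: agtgggcgtggtCACTTGggggcgtggctt
Tcf12, chr9:72112040-72112069, minus strand, 240 bases before 1 of its listed starts: agatgctgccCAGCTGcgtccccgtcgcgg
The Id2 and Tcf12 windows hold the same core, CAGCTG, while the Tcf3 core differs from it. The RefSeq start of Id2 lies inside the longer GENCODE span given above, so its window does too. The Id3 and Id4 windows held no CANNTG. The motif is frequent: 66.2% of 32851 promoters of the same length held it, and 13% held CAGCTG, so these matches describe the sequences and are not shown to be used sites. Of the other motifs searched on both strands, GGCGCC, bound by SMAD proteins, occurred once each before Id2 and Id4 and in 9.59% of all promoters. CAGGTG (17.2% of promoters), GTCTAGAC (0.167%) and GCGGGGGCG, bound by Egr proteins (2.57%), occurred in none of these windows.

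Each lineage had its own set of these transcripts. Levels are means ± SD over the 5 mice in CPM of the lineage's own UMIs, and they are compared for 1 gene at a time, since a 3′ count does not rank different genes. Differences between lineages were part of how the family was described from the start and carry no test. Plasmacytoid and endothelial values rest on 3 to 8 and on 1 to 14 cells per mouse.

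Among the inhibitors, Id3 was highest in endothelial cells at 4021 ± 3729 CPM, where the lowest mouse (1076) still stood above the highest mouse of any other lineage. Distal tubule cells followed at 540 ± 164 CPM, proximal tubule cells at 301 ± 108 and B cells at 255 ± 74.9, and each of these ranges overlapped the next. A gap separated B cells, whose lowest mouse had 168 CPM, from myeloid cells at 54.5 ± 15.1 (highest mouse 73.0). T cells (45.2 ± 7.82) and plasmacytoid cells (37.1 ± 36.3, from 6 UMIs) were in the same range as myeloid cells.

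Id1, the inhibitor most closely tied to BMP signalling in endothelium, was also highest in endothelial cells, with values from 171 to 3743 CPM per mouse. Proximal tubule cells had 117 ± 42.4 CPM, myeloid cells 36.8 ± 23.3 and distal tubule cells 23.2 ± 24.7, with overlapping ranges. Plasmacytoid cells gave 2 Id1 UMIs in all. B cells held 8.20 ± 3.39 CPM and T cells between 1.32 and 25.6, the highest T cell value being that of saline mouse 2.

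Id2 had the opposite bias among lymphocytes. T cells carried 476 ± 141 CPM and B cells 28.3 ± 6.17, so the lowest T cell value (343) was far above the highest B cell value (35.3). Proximal tubule cells, at 393 ± 102 CPM, overlapped T cells, and endothelial (222 ± 227), distal tubule (183 ± 25.3) and myeloid cells (173 ± 86.0) lay lower. Plasmacytoid cells had 5 Id2 UMIs in all.

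Id4 was the sparsest member, with 13.4 ± 4.15 CPM in proximal tubule cells (1041 UMIs). Elsewhere it gave between 2 and 14 UMIs per lineage, or 0 in 33 plasmacytoid cells, which allows up to 3 UMIs.

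Among the E proteins, Tcf4 separated the lineages most cleanly. Plasmacytoid cells held 1424 ± 433 CPM, with the lowest mouse at 1055 and the highest endothelial mouse at 765. B cells followed with 116 ± 5.04 CPM, the narrowest spread of any lineage relative to its mean, and T cells closed the order at 3.44 ± 1.02 CPM from 29 UMIs. Distal tubule (39.6 ± 5.73), myeloid (30.7 ± 4.83) and proximal tubule cells (21.7 ± 1.96) lay between B and T cells.

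Tcf3 was highest in B cells (118 ± 26.5 CPM), overlapped by endothelial and plasmacytoid cells that rested on 7 and 10 UMIs. T cells had 52.1 ± 9.49 CPM, above every mouse of the myeloid (23.4 ± 9.86), distal (23.1 ± 2.14) and proximal tubule cells (12.4 ± 0.968). Tcf12 was the most even member, from 85.3 ± 20.01 CPM in plasmacytoid cells (12 UMIs) and 63.9 ± 71.4 in endothelial cells (10 UMIs) through 40.2 ± 6.72 in T cells, 34.4 ± 3.23 in distal tubule cells, 33.1 ± 6.09 in B cells and 24.4 ± 2.56 in proximal tubule cells to 12.4 ± 4.89 in myeloid cells.

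**Figure D1:**
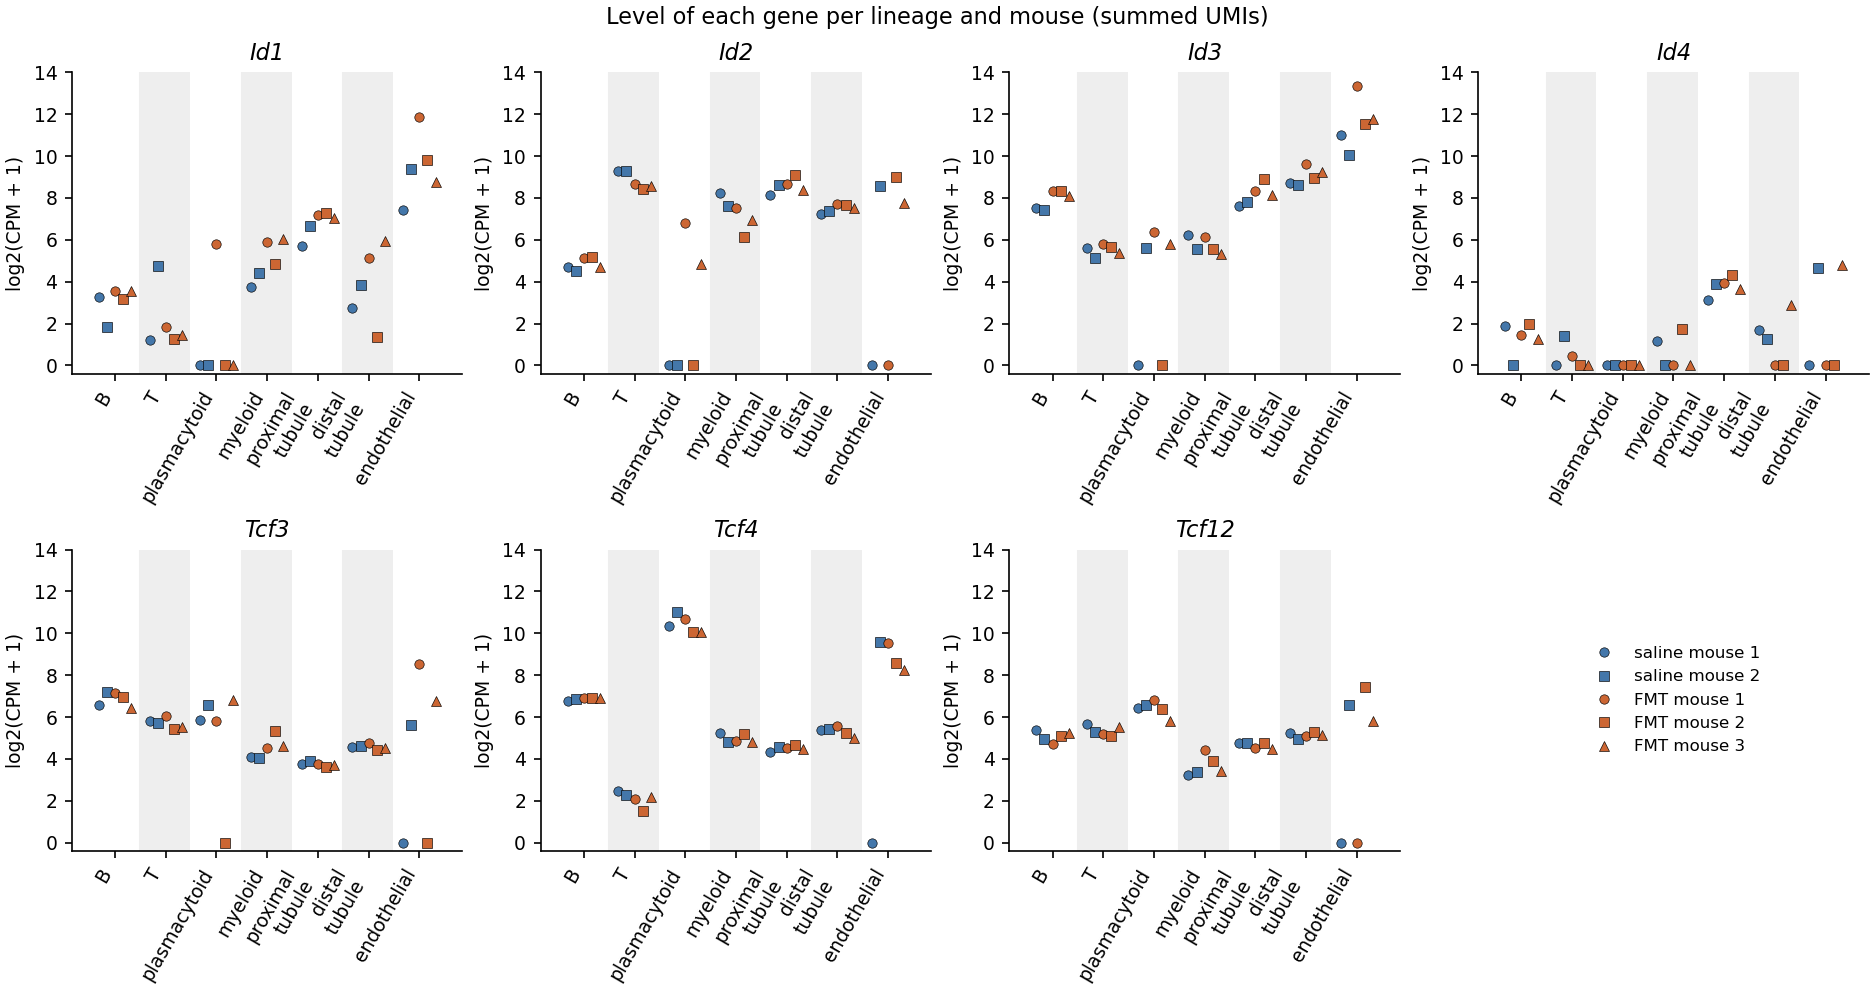
Level of each gene per mouse (1 point per mouse, saline blue and FMT orange) in the 7 lineages, as log2(CPM + 1) of summed UMIs. Tcf4 stands highest in plasmacytoid cells and lowest in T cells, Id2 is high in T cells and low in B cells, and Id3 lies higher in B cells than in T cells in every mouse; points at 0 are lineages of few cells or few UMIs.

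Within B cells, Id3 belonged to the cells with little Jchain, the joining chain of secreted antibody. B cells with under 20 Jchain UMIs had 197 and 183 CPM in the saline mice and 358, 366 and 336 in the FMT mice. Cells with at least 20 Jchain UMIs, 15 to 21 plasma-like cells per mouse, had 34.9 and 0 CPM in saline mice against 11.6, 27.7 and 7.51 in FMT mice, from 14 UMIs. Tcf4 had the other order: 189 and 126 CPM against 244, 222 and 203 in the plasma-like cells, and between 100.3 and 116 CPM in the other B cells of all 5 mice.

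Within T cells, Id2 followed effector markers. Effector T cells (Nkg7, Cxcr6 or S100a4 and neither Lef1 nor Ccr7) carried between 594 and 973 CPM of Id2 per mouse, naive T cells (the reverse) between 57.2 and 121. Cells outside the gates with Ncr1, a natural killer cell receptor, had between 535 and 1072 CPM of Id2. At 1000 UMIs per cell, Id3 was seen in 1.40% to 3.48% of T cells with an Id2 UMI and in 3.35% to 7.28% of T cells without one, lower in Id2-positive cells in 5 of 5 mice, on at most 5 cells with both per mouse.

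**Figure D2:**
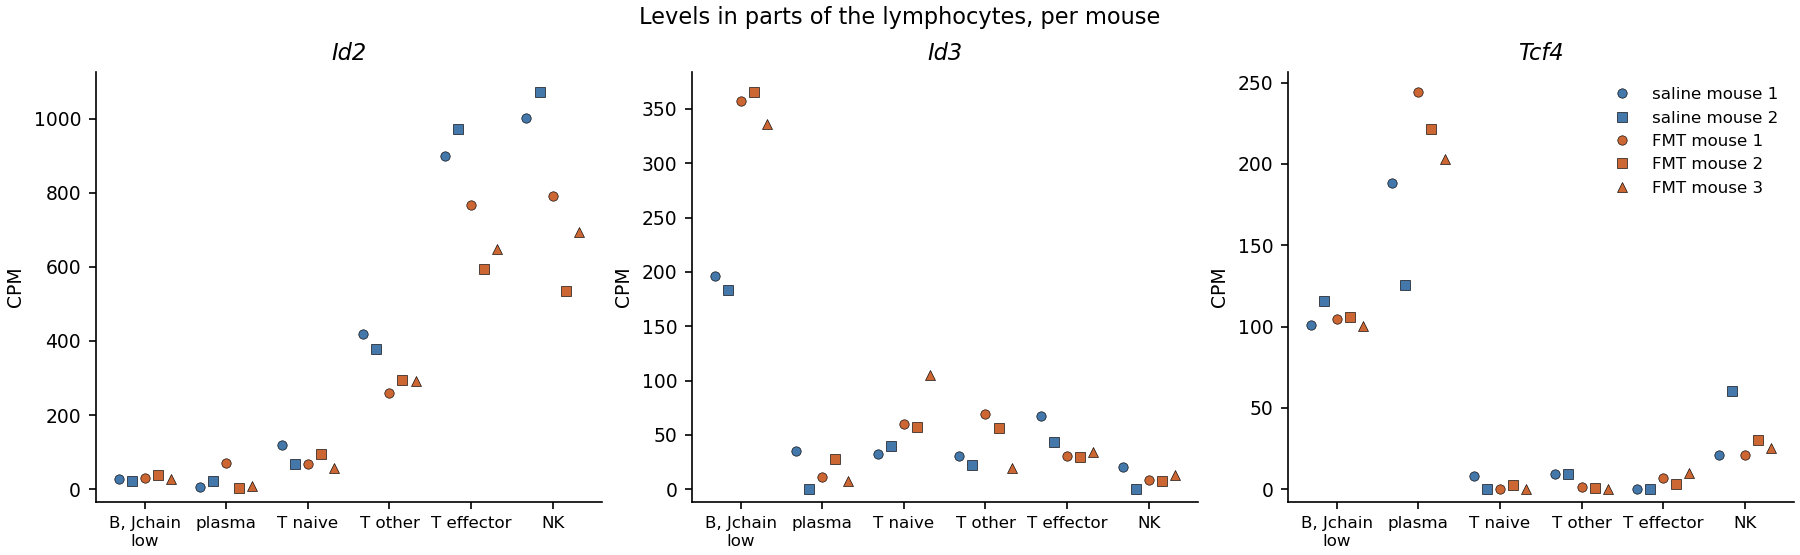
CPM of Id2, Id3 and Tcf4 per mouse in parts of the lymphocytes (B cells with under 20 Jchain UMIs, plasma-like cells, naive, other and effector T cells, and Ncr1-positive natural killer cells). Id2 climbs from naive to effector T cells and natural killer cells, Id3 is concentrated in B cells with little Jchain and is higher there in the 3 FMT mice, and Tcf4 is highest in plasma-like cells.

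The comparison of FMT with saline asked whether the transplant was accompanied by other levels of these genes within a lineage. It used edgeR's quasi-likelihood test on the summed UMIs, with Benjamini-Hochberg adjustment over all genes of the lineage, in the 5 lineages with at least 20 cells in every mouse. Of 35 pairs of gene and lineage, 28 passed the filter on low counts. Id3 in B cells is left out of the counts that follow, because that value chose the family, and 0 of the other 27 pairs had an adjusted p under 0.05. The test called 0.0229% of all genes in B cells, 0.125% in T cells, 0.106% in myeloid cells, 0.0169% in proximal tubule cells and 0.218% in distal tubule cells, so few genes of any kind passed with 2 against 3 mice. At an unadjusted p under 0.05 there were 7 such pairs, each of an Id gene, against backgrounds of 7.63% of genes in B cells, 5.88% in T cells, 3.95% in myeloid cells, 10.8% in proximal and 4.75% in distal tubule cells. DESeq2 called 3 of the 27 pairs (Id2 in T cells, where it called 0.202% of all genes, and Id1 and Id3 in proximal tubule cells, where it called 0.927%). It called 0 of the other 5 members in B cells, against 0.351% of genes there. Summed UMIs cannot separate fewer expressing cells from less RNA per cell.

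**Figure D3:**
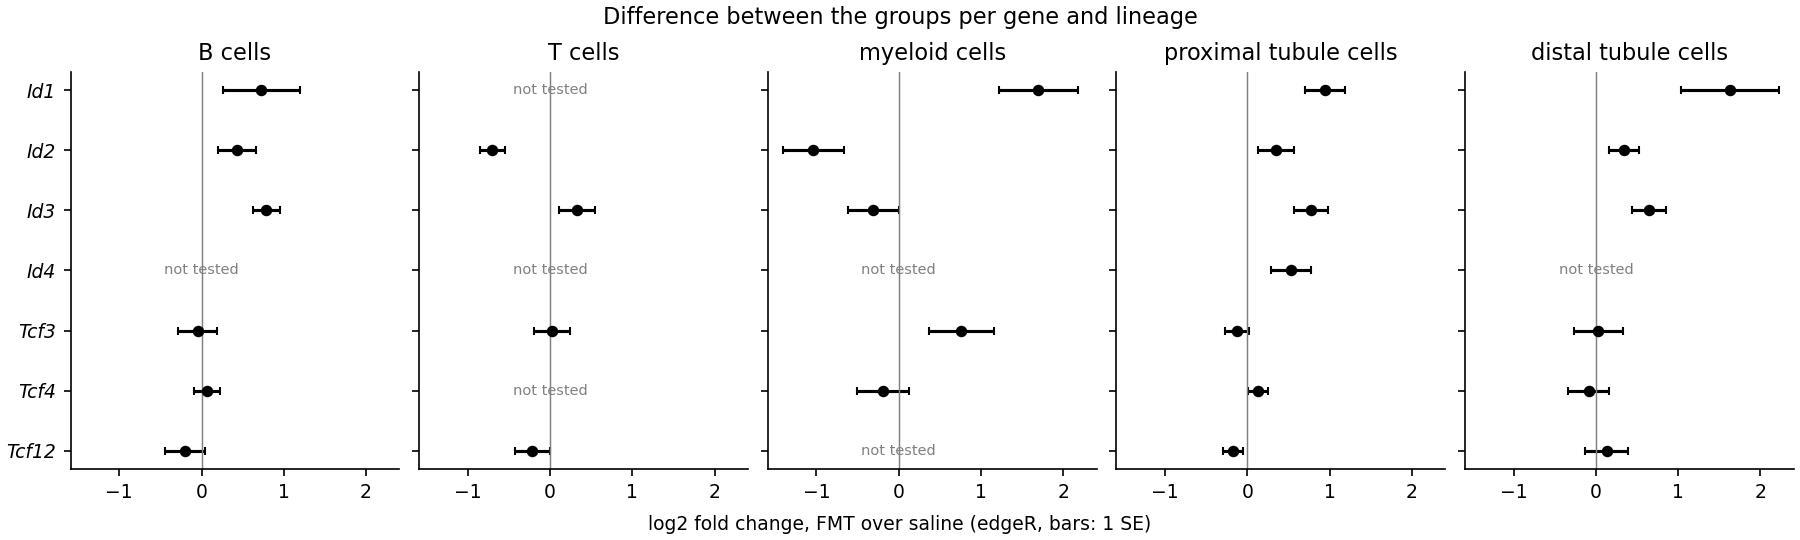
Log2 fold change, FMT over saline, of each gene in 5 lineages (point: edgeR estimate, bar: 1 SE; n = 2 saline and 3 FMT mice). The Id genes spread to both sides, from -1.04 for Id2 to 1.70 for Id1, both in myeloid cells, whereas of the 13 E protein estimates only that of Tcf3 in myeloid cells (0.76) lies more than 0.3 from 0.

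Id3 in B cells was 184 and 168 CPM in the saline mice and 324, 323 and 276 CPM in the FMT mice. The groups did not overlap, and their means were 176 ± 11.4 (SD, n = 2) and 308 ± 27.3 (SD, n = 3), a log2 difference of 0.79 ± 0.16 (SE). In B cells with under 20 Jchain UMIs, where the test called 0.224% of all genes, the difference was 0.88 ± 0.16. Of the other 5 members tested in B cells, Tcf4 was higher in every FMT mouse than in both saline mice, as were 12.3% of all genes there. In B cells with under 20 Jchain UMIs the Tcf4 values of the groups overlapped.

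The share of B cells with an Id3 UMI was higher in the FMT mice. Even at a fixed depth such a share rises with the mean level, so it largely restates the Id3 difference. It cannot separate more expressing cells from more RNA per cell, and the same holds for the other shares at 1000 UMIs. With each cell thinned to 1000 UMIs, the share was 16.9% and 14.6% in the saline mice and 26.6%, 25.7% and 27.6% in the FMT mice, after leaving out between 2 and 17 shallower cells per mouse. The groups differed by 10.9 percentage points, and by 14.4 points without thinning (37.1% against 51.5%). For comparison, 3.16% of saline and 4.53% of FMT T cells had an Id3 UMI at the same depth. Median depths before thinning were 2360 to 3371 UMIs in B cells and 3577 to 4734 in T cells.

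Other readouts were set beside Id3 in B cells. Miox, a proximal tubule enzyme that B cells do not make, was 277 and 279 CPM in B cells of the saline mice and 653, 559 and 401 CPM in those of the FMT mice, without overlap. These levels were between 4.47% and 8.69% of the Miox level in proximal tubule cells of the same mouse. If Id3 entered B cells in the same proportion, it would bring between 9.21 and 36.3 CPM, beside group means of 176 and 308 CPM. Immediate early transcripts, which include known inducers of Id3 such as Egr1, summed to 5339 and 5905 CPM in the saline mice and 12621, 4179 and 12280 in the FMT mice. FMT mouse 2 had the lowest immediate early sum and 323 CPM of Id3. The part of immediate early or foreign RNA in the Id3 difference was not tested. Plasma-like cells made up 2.89% and 3.63% of B cells in saline mice against 3.73%, 3.78% and 7.08% in FMT mice. They held 7.72% and 8.18% of the B cell UMIs in saline mice against 9.73%, 12.55% and 18.21% in FMT mice. The CPM of all B cells weighs them by this UMI share.

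**Figure D4:**
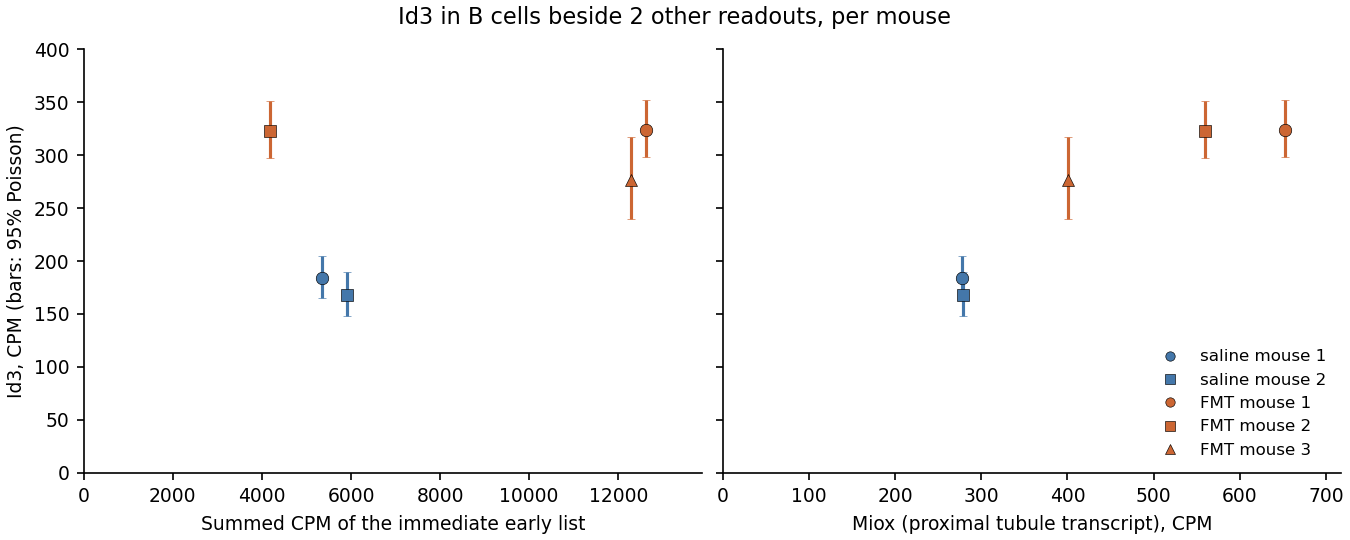
Id3 in B cells (CPM, bars: 95% Poisson intervals, counting error only) against the summed CPM of the immediate early list (left) and against Miox in the same cells (right), 1 point per mouse. FMT mouse 2 has the lowest immediate early sum of the 5 and 323 CPM of Id3, and Miox is above both saline mice in all 3 FMT mice. The part of either in the Id3 values was not tested.

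In T cells, Id3 was 48.2 and 33.9 CPM in saline mice against 53.9, 49.0 and 40.9 in FMT mice, with overlapping groups (log2 difference 0.33 ± 0.22, edgeR adjusted p = 0.900). Single cells weighed on these sums. In saline mouse 2, 30 of 61 Id3 UMIs came from 1 cell. It held 85 UMIs of the urothelial genes Upk1b and Upk3a and 1 T cell marker UMI. In saline mouse 1, 25 of 73 came from a cell with 3 urothelial UMIs and 12 T cell marker UMIs. Leaving out cells of at least 2 urothelial UMIs removed 4 T cells. Id3 was then 31.997 and 17.6 CPM in saline mice against 53.9, 49.0 and 40.9 in FMT mice. The groups no longer overlapped. In the full T cell gate 7.81% of all genes were higher in every FMT mouse. The log2 difference of Id3 without these cells was 1.06 ± 0.26 (edgeR adjusted p = 0.382). With each gate minimum multiplied by 2 it was 1.43 ± 0.32 (adjusted p = 0.459).

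In effector T cells, Id3 was 67.2 and 43.1 CPM in saline mice against 30.6, 29.4 and 34.4 in FMT mice, but the 2 cells just described were among them. Without cells of at least 2 urothelial UMIs the values were 33.5 and 8.50 against 30.6, 29.5 and 34.4 CPM, and the groups overlapped. Naive T cells held no such cell. Their Id3 was 32.2 and 39.7 CPM in saline mice against 60.4, 57.5 and 105 in FMT mice, on 4 to 33 UMIs per mouse. The groups did not overlap (log2 difference 0.83 ± 0.49, edgeR adjusted p = 0.993). The share of all genes without overlap was not counted in this part of the T cells. The naive share of T cells was 9.14% and 9.80% in the saline mice against 19.97%, 21.3% and 19.3% in the FMT mice.

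Proximal tubule cells, the largest lineage, had 196 and 226 CPM of Id3 in the saline mice and 325, 473 and 283 in the FMT mice. Every FMT mouse was above both saline mice, with a log2 difference of 0.77 ± 0.21 (edgeR adjusted p = 0.304). The difference was 0.59 ± 0.18 in cells with a UMI of Slc5a2, a glucose transporter of the early proximal tubule, and 0.91 ± 0.24 in cells without one. At 1000 UMIs per cell, 16.2% ± 0.438 (SD, n = 2) of saline and 27.0% ± 5.41 (SD, n = 3) of FMT cells had an Id3 UMI (exact permutation p = 0.2, two-sided; the smallest this design allows is 0.1).

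Distal tubule cells had 418 and 397 CPM of Id3 in saline mice against 798, 490 and 598 in FMT mice, again without overlap (log2 difference 0.64 ± 0.21, edgeR adjusted p = 0.580). The summed thick limb markers, mostly uromodulin, moved the other way in these cells, at 3762 and 5100 CPM in saline mice against 2602, 2567 and 1799 in FMT mice, and the proximal markers were at 128 and 157 against 404, 136 and 369 CPM. Their part in the Id3 values was not tested. Intercalated cells, taken outside the gates by Atp6v1g3, had the reverse sign for Id3, with 496 and 216 CPM in saline mice against 151, 50.2 and 331 in FMT mice (log2 difference -1.07 ± 0.61, edgeR adjusted p = 0.999). There the groups overlapped. Myeloid cells had 73.0 and 45.7 CPM against 68.2, 46.9 and 38.8 (-0.31 ± 0.31).

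Id1 in proximal tubule cells was 50.5 and 101 CPM in saline mice against 145, 156 and 133 in FMT mice. Saline mouse 1 was the lowest, and the groups did not overlap (log2 difference 0.95 ± 0.24, edgeR adjusted p = 0.301). Leaving out saline mouse 1 gave 0.56, and leaving out saline mouse 2 gave 1.48. The share of cells with an Id1 UMI at 1000 UMIs was 3.85% and 8.65% in saline mice against 12.7%, 12.9% and 11.5% in FMT mice (exact permutation p = 0.1, two-sided, the smallest possible). In B cells that share was 0.297% and 0.538% in the group means. In this lineage Id1 and Id3 were the 2 of 7 members with all FMT mice higher, against 13.1% of all genes.

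Id4 in proximal tubule cells was 7.81 and 13.6 CPM in saline mice against 14.4, 19.2 and 11.8 in FMT mice. The groups overlapped (log2 difference 0.53 ± 0.25, edgeR adjusted p = 0.488), and leaving out saline mouse 1 gave 0.21, saline mouse 2 0.93.

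In myeloid cells, Id1 was 12.4 and 20.5 CPM in the saline mice and 59.0, 28.1 and 64.0 in the FMT mice, from 119 UMIs in all (log2 difference 1.70 ± 0.48, edgeR adjusted p = 0.823). The difference was 1.71 ± 0.48 in cells with under 20 S100a8 UMIs and 1.71 ± 0.57 in neutrophil-like cells with more. The C1q genes of macrophages summed to 84.1 and 34.7 CPM in the saline mice and 599, 1004 and 574 CPM in the FMT mice of this gate. The share of neutrophil-like cells was 10.9% and 44.8% against 15.9%, 20.7% and 50.5%. The part of these cells in the Id1 values was not tested.

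Distal tubule cells had 5.68 and 13.3 CPM of Id1 in saline mice against 34.0, 1.60 and 61.2 in FMT mice, with FMT mouse 2 below both saline mice. In FMT mouse 3, 30 of 39 UMIs came from 1 cell with 47 urothelial UMIs, and without such cells the log2 difference was 0.85 ± 0.55 in place of 1.63 ± 0.60 (edgeR adjusted p = 0.778). Leaving out 1 mouse moved it from 0.97 (without FMT mouse 3) to 2.46 (without saline mouse 2), and it passed the test without FMT mouse 2 (2.12, adjusted p = 0.0367) and without the filter on low counts (1.59, adjusted p = 0.00142). Urothelial cells, taken by Upk1b outside the gates, held between 480.0 and 841 CPM of Id1 per mouse. In T cells of saline mouse 2, 37 of 46 Id1 UMIs came from the urothelial cell described above. In B cells, Id1 rested on 4 to 19 UMIs per mouse, at 8.62 and 2.57 CPM in saline mice against 10.7, 8.11 and 10.9 in FMT mice (log2 difference 0.73 ± 0.47). In saline mouse 1 a cell with 91 urothelial UMIs gave 11 of 16. Proximal tubule RNA in the Miox proportion would bring 2.37 and 4.53 CPM of Id1 to these cells in the saline mice and 12.6, 11.96 and 7.44 in the FMT mice, more than was measured in saline mouse 2 and FMT mice 1 and 2.

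Id2 in T cells was 626 and 632 CPM in the saline mice and 401, 343 and 377 in the FMT mice. The FMT mice were all lower, as were 14.0% of all genes in T cells, while 0 members were higher in every FMT mouse, against 7.81% of genes. The log2 difference was -0.70 ± 0.15 (edgeR adjusted p = 0.147). The share of T cells with an Id2 UMI at 1000 UMIs was 42.1% ± 4.47 (SD, n = 2) in saline and 26.8% ± 1.96 (SD, n = 3) in FMT mice (exact permutation p = 0.1, two-sided), and 1.36% and 2.29% in B cells. In the parts, the difference was -0.48 ± 0.18 in effector, -0.26 ± 0.36 in naive and -0.52 ± 0.17 in other T cells, each smaller than in all T cells together. Effector cells made up 56.3% and 54.1% of T cells in the saline mice and 43.4%, 33.5% and 46.9% in the FMT mice. Natural killer cells outside the gates had 1003 and 1072 CPM in saline mice against 791, 535 and 693 in FMT mice. Saline mouse 2 held fewer than 20 such cells and was left out of the fit, so 1 saline mouse, assumed to vary as the FMT mice do, stood against 3 FMT mice (log2 difference -0.62 ± 0.27, edgeR adjusted p = 0.629).

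Id2 in myeloid cells was 299 and 192 CPM in saline mice against 181, 70.4 and 120 in FMT mice. Saline mouse 1 held 567 of these cells and the other mice 93 to 132 each. The C1q genes differed as given for Id1, and the part of such cells in the Id2 values was not tested. The lowest saline value was close to the highest FMT value, and the log2 difference was -1.04 ± 0.37 (edgeR adjusted p = 0.998). It was -0.996 ± 0.34 in the cells with little S100a8 and -1.37 ± 0.52 in the neutrophil-like cells. Id1 and Tcf3 were the members with all FMT mice higher in this lineage, against 10.7% of genes, and Id2 the one with all FMT mice lower, against 4.44%.

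The tubule and B cell values of Id2 lay on the other side of 0. Proximal tubule cells had 285 and 391 CPM in saline mice against 402, 553 and 332 in FMT mice (0.35 ± 0.22), with overlap. Distal tubule cells had 150.04 and 167 CPM against 212, 203 and 182 (0.34 ± 0.19). B cells had 25.3 and 21.8 CPM of Id2 against 34.5, 35.3 and 24.6 (0.43 ± 0.23). Proximal tubule RNA in the Miox proportion would bring 13.4 and 17.5 CPM of Id2 to B cells of the saline mice and 35.0, 42.4 and 18.6 to those of the FMT mice, which in FMT mice 1 and 2 is more than the whole measured level. In distal tubule cells Id2 and Id3 were the members with all FMT mice higher, against 7.35% of genes.

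Whether the effect of FMT differed between lineages was tested directly, as an interaction with the mouse as a block, for 10 pairs of lineages. Id2 differed by 1.05 ± 0.29 on the log2 scale between proximal tubule and T cells (edgeR adjusted p = 0.0394, against 0.873% of genes called) and by 1.02 ± 0.23 between distal tubule and T cells (adjusted p = 0.00130, 1.1% called). Against myeloid cells the differences were 1.44 ± 0.28 for proximal (adjusted p = 0.000117, 0.95% called) and 1.35 ± 0.32 for distal tubule cells (adjusted p = 0.00723, 0.514% called). Each of the 4 calls was lost without saline mouse 1 and without FMT mouse 2, with adjusted p between 0.0655 and 1 over the mice whose removal ended a call. Between B and T cells Id2 differed by 1.15 ± 0.21 (adjusted p = 0.0851, 0.0416% called). No member was called between B and myeloid (0.0% of genes), B and proximal (0.282%), B and distal (0.24%), distal and proximal (0.423%) or myeloid and T cells (0.045%). The 2 calls of Id1 rested on a urothelial cell in the T cell gate and are given with the flagged results. For Id3, the effect in B cells exceeded that in T cells by 0.49 ± 0.20. Without cells of at least 2 urothelial UMIs this turned to -0.25 ± 0.23, so no direction is given.

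The E proteins showed small differences in the lineages where they are best known. In B cells, Tcf3 was 95.3 and 144 CPM in saline mice against 139, 125 and 84.8 in FMT mice (log2 difference -0.04 ± 0.24, edgeR adjusted p = 0.984). Tcf4 was 108 and 117 CPM against 118, 120.5 and 119 (0.06 ± 0.16). Its ranges did not overlap, but they were apart by less than the distance between the saline mice. In B cells with under 20 Jchain UMIs they overlapped. Tcf12 was 40.4 and 29.5 CPM against 24.9, 33.6 and 36.9 (-0.20 ± 0.24).

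In T cells, Tcf3 differed by 0.02 ± 0.22 and Tcf12 by -0.21 ± 0.21 on the log2 scale, and Tcf4, at 2 to 9 UMIs per mouse, was not tested. Plasmacytoid cells, too few for the test, had 1307 and 2076 CPM of Tcf4 in saline mice against 1624, 1056 and 1055 in FMT mice, with overlap. In proximal tubule cells the differences were -0.13 ± 0.15 for Tcf3, 0.13 ± 0.12 for Tcf4 and -0.18 ± 0.12 for Tcf12, and in distal tubule cells 0.03 ± 0.30, -0.09 ± 0.25 and 0.13 ± 0.26. Tcf3 in myeloid cells, at 15.8 and 15.8 CPM in saline mice against 22.1, 39.9 and 23.3 in FMT mice, had the largest E protein estimate, 0.76 ± 0.39 (edgeR adjusted p = 0.998), on 10 to 37 UMIs per mouse, and Tcf4 there differed by -0.19 ± 0.32.

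Set against each other, summed Id transcripts stood at different proportions to summed E protein transcripts in the 2 groups. The log2 ratio in B cells was -0.14 and -0.59 in the saline mice and 0.39, 0.41 and 0.38 in the FMT mice, so E protein transcripts had the larger sum in both saline mice and Id transcripts in all 3 FMT mice. This is largely the Id3 difference again and has no test of its own. In T cells the ratio was lower in FMT mice, at 2.62 and 2.88 against 2.13, 2.35 and 2.18 (exact permutation p = 0.1, two-sided). Proximal tubule cells had 3.24 and 3.54 against 3.98, 4.29 and 3.802 (exact permutation p = 0.1). In distal tubule cells the values were 2.53 and 2.59 against 3.30, 2.86 and 3.27, and in myeloid cells 2.66 and 2.31 against 2.14, 0.73 and 1.89 (exact permutation p = 0.2 for each). A ratio compares mice within a lineage only, since the genes differ in length and capture.

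**Figure D5:**
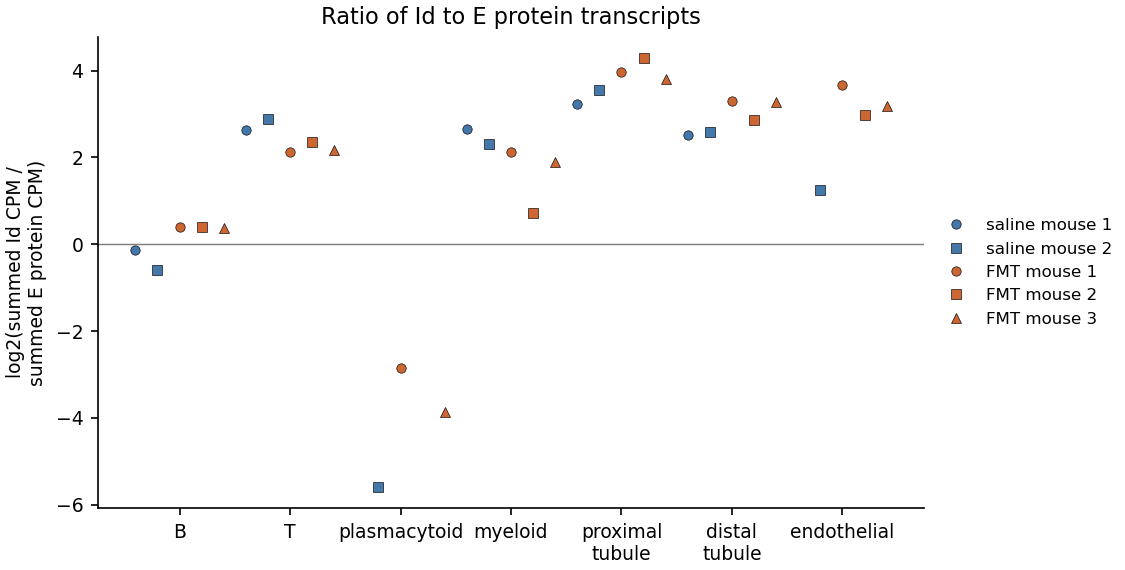
Log2 of summed Id CPM (Id1 to Id4) over summed E protein CPM (Tcf3, Tcf4, Tcf12) per mouse and lineage. In B cells the 2 saline mice lie below 0 and the 3 FMT mice above it, in T cells the FMT mice lie lower, and plasmacytoid cells lie far below 0 in the 3 mice that had any Id UMI.

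Genes linked to the family were read from 6 lists, and no gene of these lists passed the test in B cells. Of the B cell genes of the E protein network, 4 of 16 tested had a positive estimate, with a median log2 difference of -0.14, where all genes had -0.00. The lowest p-values belonged to Ebf1, a partner of E47 in B cell specification (2082 and 2135 CPM against 1654, 1527 and 1491, -0.46 ± 0.13, edgeR adjusted p = 0.367), and Pou2af1, a B cell coactivator (-0.56 ± 0.20, adjusted p = 0.551). Both were lower in all FMT mice, as were 10.9% of all genes in B cells.

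All 13 immediate early genes tested in B cells had positive estimates (median 0.80), none with an adjusted p under 0.05. Jun was 660 and 681 CPM in saline mice against 1536, 619 and 1886 in FMT mice (0.99 ± 0.35), and Nr4a1 differed by 1.77 ± 0.67. Egr1, which activates Id3 after antigen receptor signalling, was 90.5 and 46.2 CPM against 97.8, 45.7 and 150.4 (0.43 ± 0.40), Egr2 differed by 0.23, and Egr3 was too low to test. FMT mouse 2 was below both saline mice for Jun and Egr1. In distal tubule cells 11 of 12 immediate early genes were positive (median 0.87), in proximal tubule cells 7 of 13 (median 0.07).

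Among BMP, TGF-beta and SMAD genes, the input to Id1 and Id3, 0 passed in any lineage. In proximal tubule cells 12 of 20 had a positive estimate (median 0.02). Bmp4 there was 25.9 and 35.0 CPM in saline mice against 41.97, 43.2 and 42.1 in FMT mice (0.49 ± 0.14, edgeR adjusted p = 0.307), and in distal tubule cells it differed by 1.104 ± 0.41, while Nog, a secreted BMP antagonist, differed by -1.11 ± 0.39 there. Smad7, an inhibitory SMAD, was 135 and 119 CPM in saline and 91.6, 57.9 and 41.0 in FMT B cells (-0.97 ± 0.25, adjusted p = 0.306).

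In T cells, 11 of 16 genes of the T cell list had a positive estimate (median 0.35, all genes -0.01) and 0 passed. Klf2, which sustains naive T cell trafficking, was 621 and 1026 CPM against 1792, 1238 and 1440 (0.90 ± 0.23, edgeR adjusted p = 0.296), and Lef1 differed by 0.61 ± 0.17. Both mark naive cells, whose share was higher in the FMT mice, as given above. Lef1 is among the genes that define that part, so the share and the Lef1 level are not separate readouts. The part of the naive share in the Klf2 and Lef1 values was not tested. The 1 listed gene that passed in any lineage was Ly6d, from the plasmacytoid list, in T cells (-4.49 ± 0.36, edgeR adjusted p = 0.000226), at 70.7 and 94.6 CPM in saline mice against 1.80, 6.06 and 1.78 in FMT mice. A single cell gave 98 of its 107 UMIs in saline mouse 1 and another gave 154 of 170 in saline mouse 2, and both held urothelial UMIs. Without such cells Ly6d was 6.00 and 6.26 CPM in saline mice against 1.80, 6.07 and 1.78 in FMT mice and the groups overlapped.

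Of the 8 plasmacytoid genes tested in B cells, 4 had a positive estimate (median 0.00). Of the partners and other helix-loop-helix genes, Mxd4, a partner of Max, had the lowest p in T cells (-0.80 ± 0.18, edgeR adjusted p = 0.154), and Lmo2, a bridging protein of E protein complexes, differed by 0.42 ± 0.16 in B cells and 0.63 ± 0.28 in myeloid cells. Irf8, from the plasmacytoid list, had an adjusted p of 0.0633 in proximal tubule cells (13.7 and 15.6 CPM against 26.6, 30.7 and 26.3).

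Over the 35 profiles of lineage and mouse, the genes most like each member by Pearson's r of log2(CPM + 1) were Lims2 (0.86), Dhrs3 and Ece1 for Id1, Kif1b (0.92), Dars and Zdhhc3 for Id2, Cd81 (0.88), Pim3 and Selm for Id3, and Adamts9 (0.89), Mpdz and Zfp697 for Id4. For the E proteins they were Cyth1 (0.91), DHRSX and Rnf126 for Tcf3, Arhgap17 (0.81), Hs3st1 and Tmed3 for Tcf4, and Irf2bp2 (0.92), Exoc4 and Srsf6 for Tcf12. The profiles share mice and libraries, the small lineages enter with few UMIs, and these values describe 11642 genes with no test. The 3 genes nearest to Id1, and those nearest to Id3, had their highest mean in endothelial cells, as these members did, and those nearest to Tcf4 had theirs in plasmacytoid cells.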

How the data were processed

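The deposited matrices hold raw UMI counts per gene and barcode. Cell Ranger 2.1.1 and mm10 are named in the submitters' processing notes, but version 4.0.0 stands in the file headers, and which one applies is not settled. Barcodes needed 200 or more genes and less than 50% mitochondrial UMIs (22591 of 26237 passed), and the 883 cells with the highest Scrublet scores (0.8% per 1000 cells, scanpy 1.11.5) were removed as doublets. Gates required 2 UMIs for B, plasmacytoid, distal and endothelial cells, 1 for T, 5 for myeloid and 3 for proximal tubule cells. Counts were summed per mouse and lineage and tested with edgeR 4.0.16 (TMM, filterByExpr, quasi-likelihood), with DESeq2 1.42.0 as an alternative. Intervals cover counting error only. The mouse is the replicate. Members and lists were chosen with earlier results of these data known. All 7 members are described by level, with FMT differences where tested, the 2 listed genes of lowest p are given where a list held no call (a selection of lineages is printed), and the 3 most alike genes per member. Parts of lineages and the urothelial exclusion were added after seeing the data. Coordinates come from GENCODE M21, promoters from RefSeq, which gave no entry for Id1. A further sequence match and a T cell gene are not reported here.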

Additional observations from a re-analysis of the deposited data

Results flagged for a closer look

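The effect of FMT on Id1 and Id2 differed between lineages in 6 tests of the difference itself (edgeR, mouse as a block, adjusted p under 0.05). For Id1 the log2 difference was 4.11 ± 0.62 between distal tubule and T cells (adjusted p = 1.25e-08) and 3.57 ± 0.49 between proximal tubule and T cells (adjusted p = 2.39e-09). Both rested on saline mouse 2, where 1 urothelial cell gave 37 of the 46 Id1 UMIs of T cells: without that mouse they were 1.42 and 0.864 (adjusted p = 1 for both). With cells of at least 2 urothelial UMIs left out they were -0.21 and -0.23.

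For Id2 the differences against T cells were 1.02 for distal and 1.05 for proximal tubule cells. Against myeloid cells they were 1.44 for proximal and 1.35 for distal tubule cells. With cells of at least 2 urothelial UMIs left out they were, in this order, 1.02, 1.07, 1.43 and 1.32, each with an edgeR adjusted p under 0.05. Distal tubule against T cells lost its call without saline mouse 1 (adjusted p = 0.334), saline mouse 2 (0.163) or FMT mouse 2 (0.240). Proximal tubule against T cells lost it when saline mouse 1 (0.273), FMT mouse 2 (0.519) or FMT mouse 3 (0.0655) was left out. Against myeloid cells the calls ended without saline mouse 1 (1.0 for proximal, 0.883 for distal) or FMT mouse 2 (0.251 and 0.329). The sizes of T and myeloid subsets differed between these mice, and their part in the Id2 values was not tested.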

How the results depend on the processing

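Id3 in B cells, given as a description, had a positive difference in all 15 alternatives, among them DESeq2 (0.80), no filter on low counts (0.79), under 20 Jchain UMIs (0.88) and 1 mouse left out (0.75 to 0.86). The alternatives reuse the same mice and the value that chose the family, so their shared sign adds no support. The deviations of same-numbered mice from their group means correlated at -0.29 and -0.01 over 3749 genes. The deviations of 2 saline mice mirror each other, so this check cannot exclude a pairing by number. With the replicate block the difference was 0.85 and 0 members were called. The block fit called 1 of 8733 genes in B cells, 67 of 8794 in T cells and 46 of 5670 in myeloid cells. In proximal tubule cells it called 70 of 11828 and in distal tubule cells 9 of 8247. That fit rests on mice 1 and 2 of each group, since FMT mouse 3 has no saline mouse of its number. Without the filter on low counts, edgeR called 169 of 14890 genes in B cells, 139 of 15149 in T cells and 80 of 14189 in myeloid cells. It called 125 of 17408 genes in proximal and 101 of 14646 in distal tubule cells. With Id3 in B cells counted, although that value chose the family, DESeq2 called 4 members and the unfiltered fit 7. Leaving out 1 FMT mouse gave 0 to 1 (Id1 in distal cells without FMT mouse 2, where 18 of 8351 genes were called). Over these fits the genes called ranged from 0 of 8457 in B cells to 22 of 8529 in T cells, both without FMT mouse 1. The B against T difference of Id3 was -0.56 with the stricter gate and -0.25 without cells of at least 2 urothelial UMIs. Without 1 mouse it was 0.28 to 0.69. Leaving out 1 mouse, the share of B cells with Id3 differed by 9.71 to 12.03 points and the Id to E ratio by 0.53 to 0.99.

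Of 378 alternatives for the other 27 member results, 350 kept their sign and did not pass, 9 kept their sign and newly passed, and 19 changed sign without passing. Leaving out 1 mouse, the B cell estimates ranged from -0.35 to 0.33 for Tcf3, -0.032 to 0.17 for Tcf4 and -0.37 to 0.0035 for Tcf12, and Tcf3 was 0.13 with the block. Tcf3 in T cells ranged from -0.27 to 0.17 and was -0.0072 with the stricter gate and -0.053 in Leiden clusters. In myeloid Leiden clusters Id3 was 0.50 and Tcf4 0.29. In distal cells the ranges without 1 mouse were -0.11 to 0.093 for Tcf3, -0.28 to 0.024 for Tcf4 and -0.078 to 0.28 for Tcf12. There Tcf3 was -0.0043 unfiltered, -0.099 with the stricter gate and -0.033 with cells of several gates assigned. It was -0.050 in Leiden clusters and -0.018 without cells of at least 2 urothelial UMIs. The cause of these changes was not tested. The Id1 differences of distal and proximal tubule against T cells turned to -0.21 and -0.23 without cells of at least 2 urothelial UMIs. With 2 against 3 mice, no exact test can reach 0.05. Endothelial and plasmacytoid cells were too few to test.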
